A study of Mus musculus with 2 samples.

Results

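The 32 genes described here encode the clotting factors, the anticoagulant proteins and the enzymes and inhibitors that dissolve clots. They were chosen by name from the deposited gene list, and all 32 were found among the 32285 features, 1 feature each. By role, 8 belong to the contact and intrinsic route, 2 to the tissue factor route, 8 to the common route and the clot itself, 8 to the anticoagulants and 6 to fibrinolysis. They were measured in single cells from mouse liver tumors, in 2 libraries with 1 library per genotype.

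The animals were C57BL/6J littermates. One library (WT) came from wild-type mice and the other (hKO) from mice whose hepatocytes lack Fabp5, the gene of a protein that binds fatty acids. The knockout was made with a Cre recombinase that tamoxifen switches on and that the albumin promoter restricts to hepatocytes, so other cells of the hKO tumors keep the gene. Both genotypes received tamoxifen at 6 to 8 weeks of age, in 5 injections of 100 mg/kg given 3 days apart after a 16 h fast. A diet labelled CD-HFD began 2 weeks later and lasted 15 months. Each library pooled 2 to 3 tumors, so animals and tumors cannot be told apart within it. A difference between libraries cannot be told apart from a difference between genotypes, and no test or p-value is given.

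Blood clotting is a cascade of proteases that circulate as inactive precursors. The liver parenchymal cell, the hepatocyte, secretes most of them, together with fibrinogen, plasminogen and antithrombin. The vessel lining supplies factor VIII and von Willebrand factor and carries thrombomodulin and the protein C receptor, which turn thrombin toward anticoagulation. Monocytes and macrophages carry the A subunit of factor XIII, which crosslinks fibrin, and the urokinase receptor, which holds a fibrin-dissolving protease at the cell surface.

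The libraries held 14289 WT barcodes with 58772330 unique molecular identifiers (UMIs) and 18657 hKO barcodes with 68010317 UMIs. Mitochondrial UMIs were over 25% in 18.5% of WT and 36.8% of hKO barcodes, and those barcodes were left out. The 9459 WT and 10402 hKO cells kept had median depths of 3822 and 3642.5 UMIs, and 29 barcodes were in both sets. Clusters often separated the libraries. Of the 1325 WT B-like cells 1280 lay in cluster 3, while 1210 of 1279 hKO B-like cells lay in cluster 26. Levels below are UMIs summed over the cells of a class and given per 1000000 UMIs of that class (CPM). Brackets give 95% intervals, which cover counting error only.

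Fabp5 stood at 79 UMIs (101.4 CPM) in WT and 51 UMIs (13.8 CPM) in hKO hepatocyte-like cells. It was not lower in hKO macrophage-like cells, at 27 CPM in WT and 35.4 CPM in hKO, or endothelial-like cells, at 15 and 23.1 CPM. In monocyte-like cells Fabp5 was lower in hKO, at 51 UMIs (16.9 CPM) in WT and 46 UMIs (8.35 CPM) in hKO. The reads tag the 3′ end of transcripts, and the labels do not say which part of the gene was deleted.

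The clotting genes were divided among cell classes. Of the 32 genes, 18 had their highest level in hepatocyte-like cells in both libraries, among the 11 classes that held 100 or more cells in both libraries. They were F11, F12, Klkb1, Kng1, Kng2, F9, F2, Fga, Fgb, Fgg, F13b, Proc, Proz, Serpinc1, Serpind1, Plg, Serpinf2 and Cpb2. Another 6 were highest in endothelial-like cells in both (F8, Vwf, Pros1, Thbd, Tfpi and Plat). The level of F13a1 was highest in monocyte-like cells, that of Plau in macrophage-like cells, and those of F3, F5 and Plaur in neutrophil-like cells. For 3 genes, F7, F10 and Procr, the highest class differed between the libraries. Classes with under 100 cells in a library have no part in these placings, among them the cholangiocyte-like cells (201 in WT and 35 in hKO). In hKO the level of F3 was higher in cholangiocyte-like than in neutrophil-like cells, as given below. The placings also leave out a deep WT hepatocyte cluster described below. It had F7 at 34.1 CPM, F5 at 172.4 CPM and Plat at 24.9 CPM. Those levels were above the 14, 101.4 and 4.87 CPM of the highest WT classes.

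**Figure D1:**
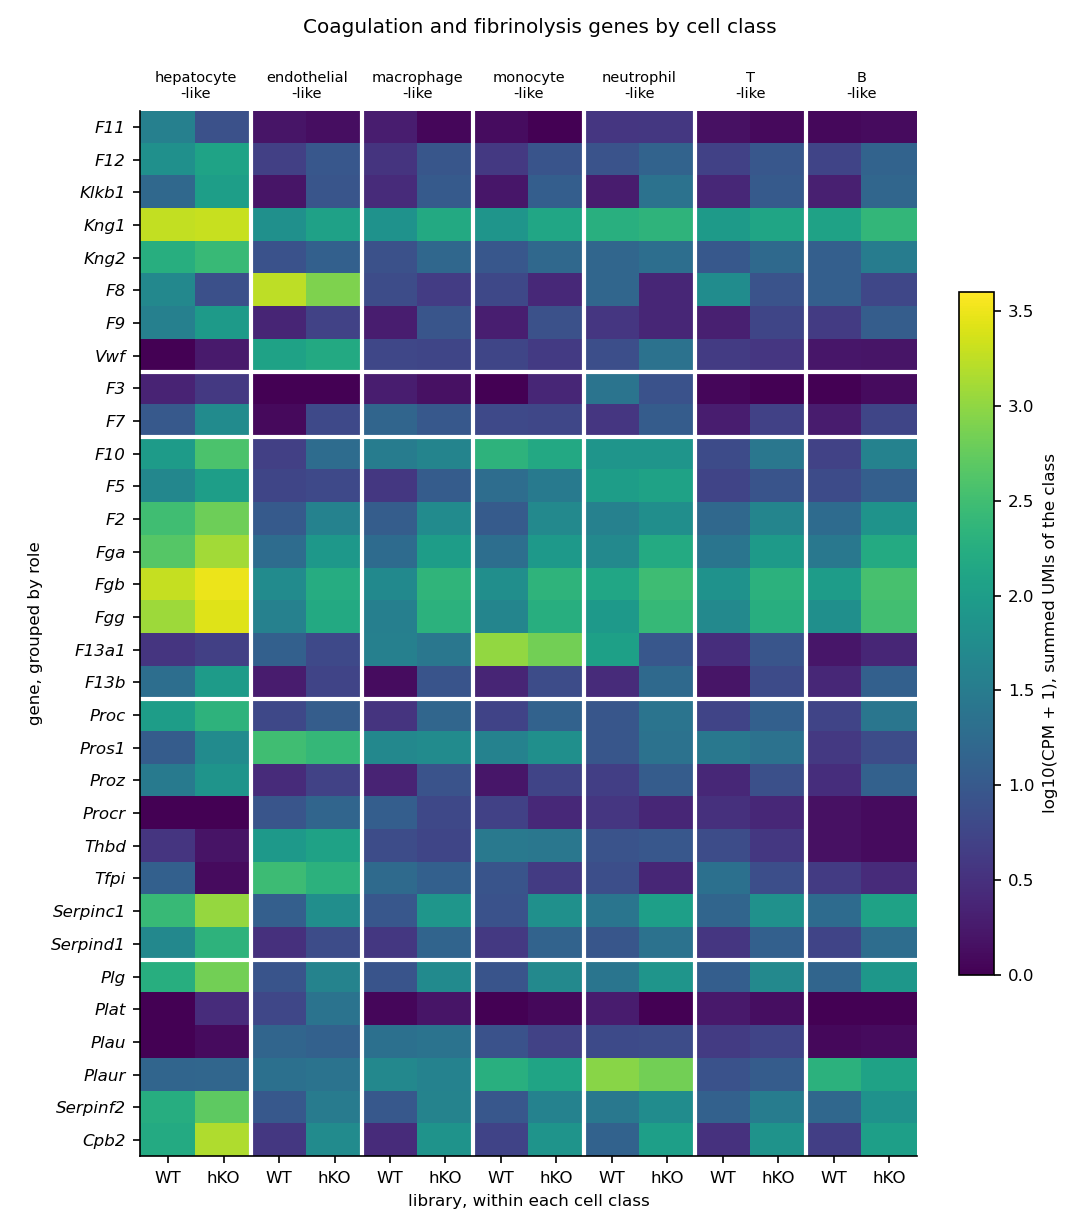
Level of each of the 32 genes (rows, grouped by role) in 7 cell classes, with WT and hKO side by side in each class; color is log10(CPM + 1) of the summed UMIs. Fibrinogen and kininogen genes stood out in hepatocyte-like cells, F8 in endothelial-like cells at 1729.9 CPM in WT and 803.2 CPM in hKO, and F13a1 in monocyte-like cells; the faint rows of fibrinogen in lymphocytes were brighter in hKO.

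Which WT cells counted as hepatocytes changed the hepatocyte comparison, so that choice comes first. At the clustering resolution used throughout (1.0), 348 WT and 1104 hKO cells were hepatocyte-like, but they shared almost no cluster. Cluster 22 held 324 of the WT cells, with a median of 1298.5 UMIs against 3822 over the library. Clusters 28 and 29 held 289 and 814 of the hKO cells, with medians of 2189 and 1379 UMIs. A second group of WT hepatocytes was hidden in cluster 23, named cholangiocyte-like from its bile duct markers. At resolution 2.0 it split off as 118 WT cells with a median of 21715.5 UMIs, 5.92% of UMIs from 10 hepatocyte reference genes (albumin and other plasma protein genes) and 0.702 CPM of the duct marker Epcam. The hKO library gave no such cluster. Values are therefore given for the clusters at resolution 1.0 and for 3 other choices. These were the clusters at resolution 2.0 (468 WT and 1119 hKO cells), a gate per cell on hepatocyte genes (173 and 747 cells), and the deep WT cluster alone against all hKO hepatocyte-like cells.

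A gene met the size rule when it reached 20 CPM in a library, its log2 ratio of hKO over WT was at least 1 in size, and the interval excluded 0. In hepatocyte-like cells at resolution 1.0, 23 of the 32 genes reached 20 CPM in a library. Of these, 17 were higher in hKO by that rule, where 19.6% of all 5783 genes at 20 CPM were higher. There were 2 lower genes, where the share over all genes was 28.0%, and 47.5% of all genes met the rule in either direction. The median log2 ratio was 1.36 over the 23 genes and -0.41 over all genes. Markers of other cell types differed in the same cells: the 6 erythroid markers summed to 30801.8 CPM in WT and 1303.9 CPM in hKO, with none at 0, and the 6 cholangiocyte markers to 145.0 and 1059.5 CPM, with 2 at 0 in each library. The 8 hepatocyte markers summed to 54189.9 CPM in WT and 73075.3 CPM in hKO, with none at 0. Among them Ttr was at 4308.6 and 14955.9 CPM, but Apoa1 was at 12959.2 and 4487.5 CPM. The part of all these markers in the ratios was not tested. With the clusters at resolution 2.0, 7 of 22 genes were higher (8.98% of all genes) and 2 lower (42.4%). With the gate the counts were 7 higher (10.3% of all genes) and 2 lower (54.3%) of 22. With the deep WT cluster they were 7 higher (10.1%) and 4 lower (46.4%) of 23. The 4 choices share many cells and are not separate comparisons. Resolution 1.0 and the deep WT choice used the same 1104 hKO cells. The deep WT cluster gave 2847460 of the 3620013 WT UMIs at resolution 2.0. The same 7 genes were higher under all 4 choices, namely Klkb1, F9, F10, Fgg, F13b, Serpinc1 and Cpb2, and 1 gene, F11, was lower under all 4. The mitochondrial limit moved these ratios too. At a limit of 10% all 7 ratios were smaller, from 0.47 for F9 and 0.62 for Fgg, both under the size rule, to 2.66 for Cpb2, while F11 was at -3.85. That limit also turned the sign of F2 (-0.36), Fga (-0.28) and Plg (-0.021), with 243 WT and 197 hKO cells left.

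**Figure D2:**
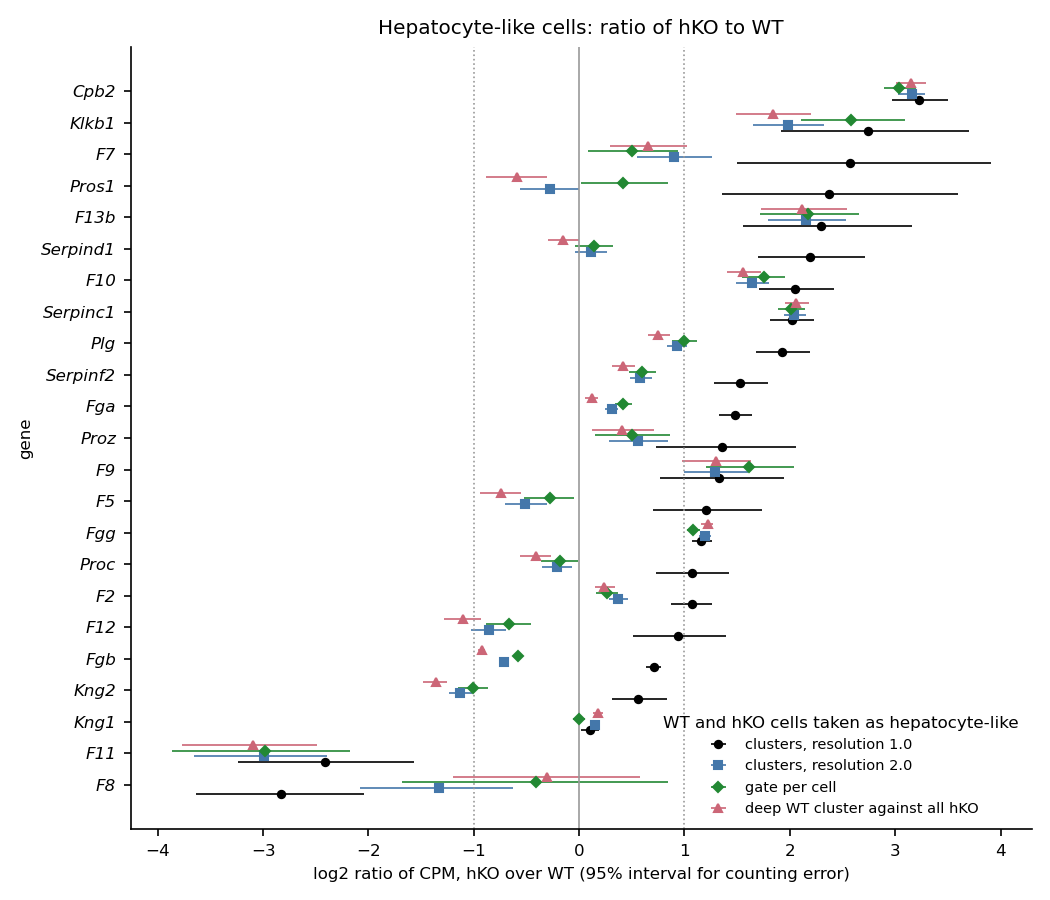
Log2 ratio of CPM, hKO over WT, for the 23 genes at 20 CPM or more in a library in hepatocyte-like cells, under the 4 choices of cells; bars are 95% intervals for counting error and dotted lines mark ratios of 1 in size. Cpb2, Serpinc1 and F11 kept nearly the same place under all 4 choices, while Fgb, F5, Proc and Kng2 lay to the right of 0 for the clusters at resolution 1.0 and to the left of 0 for the other choices.

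Among the contact and intrinsic genes, the zymogens F11 and Klkb1 differed in opposite directions. F11, the precursor of the protease that activates factor IX, had 28 UMIs (35.9 CPM) in WT and 25 UMIs (6.78 CPM) in hKO hepatocyte-like cells. Its log2 ratio was -2.41 (-3.24 to -1.57), and the other 3 choices gave -2.99, -2.98 and -3.10. In the deep WT cluster F11 rested on 166 UMIs (58.3 CPM), so its lower level in hKO did not depend on the shallow WT cells. Klkb1, prekallikrein, which cuts kininogen and activates factor XII, lay the other way, with 12 UMIs (15.4 CPM) in WT and 379 UMIs (102.8 CPM) in hKO. Its log2 ratio was 2.74 (1.92 to 3.70), between 1.84 and 2.58 under the other choices and 1.03 at a mitochondrial limit of 10%. F9, the vitamin K dependent factor IX, had 28 UMIs (35.9 CPM) in WT and 332 UMIs (90.1 CPM) in hKO, a log2 ratio of 1.33 (0.77 to 1.94).

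F12, which starts the contact route, had 49 UMIs (62.9 CPM) in WT and 444 UMIs (120.4 CPM) in hKO. Its log2 ratio was 0.94 in these clusters and -1.10 (-1.28 to -0.93) against the deep WT cluster, where it stood at 258.8 CPM. The kininogen genes Kng1 and Kng2, which encode the precursor of bradykinin, are close copies, and reads could be split between them. Kng1 differed little, at 1845.1 CPM in WT and 1982.0 CPM in hKO, and its log2 ratio lay between 0.0021 and 0.18 over the 4 choices. Kng2 had 180.9 CPM in WT and 266.9 CPM in hKO, but 687.3 CPM in the deep WT cluster, a log2 ratio of -1.36 (-1.48 to -1.25) against it.

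F8 was the other gene lower in hKO hepatocyte-like cells, from 36 UMIs (46.2 CPM) to 24 UMIs (6.51 CPM), a log2 ratio of -2.83. Endothelial markers moved with it: the 8 markers summed to 206.6 CPM in WT and 30.9 CPM in hKO hepatocyte-like cells, and none of the 8 was at 0 in either. In the deep WT cluster F8 was at 8.08 CPM and the ratio was -0.31 (-1.20 to 0.58). Vwf had 0 UMIs in WT and 3 in hKO hepatocyte-like cells.

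Of the tissue factor route, F7 encodes the protease that tissue factor activates, and F3 encodes tissue factor itself. F7 had 7 UMIs (8.98 CPM) in WT and 197 UMIs (53.4 CPM) in hKO hepatocyte-like cells. The log2 ratio of F7 was 2.57 (1.5 to 3.91), against 0.65 (0.29 to 1.02) with the deep WT cluster, where F7 stood at 34.1 CPM. F3 was near the limit of counting in hepatocyte-like cells, with 1 UMI in WT and 11 in hKO. It was found mainly in duct cells: cluster 23 had 60 UMIs (15.0 CPM) in 201 WT cells and 45 UMIs (112.9 CPM) in 35 hKO cells. The WT cells of that cluster included the 118 deep hepatocytes. In the duct cells alone, split off at resolution 2.0, F3 had 54 UMIs (47.2 CPM) in WT and 45 UMIs (112.8 CPM) in hKO.

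In the common route, F10 was higher in hKO under all 4 choices of cells, by an amount that moved with the mitochondrial limit. F10, whose protease cuts prothrombin, had 72 UMIs (92.4 CPM) in WT and 1414 UMIs (383.5 CPM) in hKO. Its log2 ratio was 2.05 (1.71 to 2.42), and 1.56 to 1.75 under the other choices. At mitochondrial limits of 10% and 50% it was 1.02 and 4.07. F2, prothrombin, had 241 UMIs (309.2 CPM) in WT and 2387 UMIs (647.5 CPM) in hKO, a log2 ratio of 1.07 (0.87 to 1.26), but against the deep WT cluster the ratio was 0.24. F5, the cofactor of factor X, changed side. It stood at 44.9 CPM in WT cluster cells and 103.1 CPM in hKO, yet the deep WT cluster had 172.4 CPM, for a ratio of -0.74 (-0.94 to -0.55).

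Factor XIII, which crosslinks fibrin, has its 2 subunits made in different cells. F13b, the carrier subunit, had 15 UMIs (19.2 CPM) in WT and 350 UMIs (94.9 CPM) in hKO hepatocyte-like cells, a log2 ratio of 2.30 (1.56 to 3.16). The other choices gave 2.12 to 2.17, and a mitochondrial limit of 10% gave 1.20. F13a1, the catalytic subunit, had 2 and 14 UMIs there and is described with the monocytes.

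Fibrinogen, the soluble precursor of the clot, is built from the 3 chains Fga, Fgb and Fgg, whose genes lie together on chromosome 3. The bases just before each start are shown because the 3 genes are known to respond together in the acute phase, and here their transcripts did not keep 1 ratio. RefSeq promoters (GRCm38.p6) matched 25 of the 32 genes. The stretches below end at the base before the annotated start, read 5′ to 3′ along the gene. Capitals mark CTGGGA, the core of an interleukin 6 response element, and GTTAAT or its reverse complement ATTAAC, a HNF1 half-site. Matches of the 2 motifs shared no base. Fga is on the plus strand at chr3:83026003-83026152, Fgb on the minus strand at chr3:83049864-83050013 and Fgg on the plus strand at chr3:83007574-83007723.
Fga: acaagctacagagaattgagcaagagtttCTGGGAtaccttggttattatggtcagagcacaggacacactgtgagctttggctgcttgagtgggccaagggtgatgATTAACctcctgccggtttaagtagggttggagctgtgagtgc
Fgb: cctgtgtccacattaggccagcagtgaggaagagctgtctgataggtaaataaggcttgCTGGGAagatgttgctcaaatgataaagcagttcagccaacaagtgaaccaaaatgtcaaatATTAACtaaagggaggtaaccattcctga
Fgg: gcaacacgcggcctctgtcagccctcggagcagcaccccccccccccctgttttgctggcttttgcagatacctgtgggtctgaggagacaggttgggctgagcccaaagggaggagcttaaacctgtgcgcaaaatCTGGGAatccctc
CTGGGA stood in all 3 windows, beginning 121 bases before the start of Fga, 91 before that of Fgb and 13 before that of Fgg. On either strand it was in 17.7% of the 32851 RefSeq promoter windows of 150 bases, and in 9 of the 25 windows of the clotting genes. ATTAAC began 43 bases before the start of Fga and 29 before that of Fgb and was not in the Fgg window. That motif was in 3.71% of all windows and in 3 of the 25. These matches of letters are a description and were not tied to the counts.

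The fibrinogen chains differed in how they compared between libraries. Fgg had 925 UMIs (1186.9 CPM) in WT and 9811 UMIs (2661.2 CPM) in hKO hepatocyte-like cells, a log2 ratio of 1.16 (1.07 to 1.26). It stayed between 1.08 and 1.22 under the other choices, and was 0.62 and 2.76 at mitochondrial limits of 10% and 50%. Fga had 450.4 CPM and 1258.8 CPM, a log2 ratio of 1.48 (1.33 to 1.64), which was 0.12 against the deep WT cluster. Fgb had 1492 UMIs (1914.4 CPM) and 11512 UMIs (3122.6 CPM), a log2 ratio of 0.71 (0.63 to 0.78). In the deep WT cluster Fgb had 16841 UMIs (5914.4 CPM), and the ratio was -0.92 (-0.96 to -0.89).

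Within a population, the share of fibrinogen UMIs that each chain took does not depend on the total. Genes may be captured unequally, so each chain is compared only with itself. Fgb took 72% (71.4 to 72.5) of 23401 fibrinogen UMIs in the deep WT cluster and 54.2% (52.3 to 56.1) in WT cluster 22. It took 48.9% (47.9 to 50) in hKO cluster 28 and 42.1% (41.4 to 42.9) in hKO cluster 29. Fgg took 13.9% in the deep WT cluster, 33.2% in WT cluster 22, 32.4% in hKO cluster 28 and 40.4% in hKO cluster 29. Per Fgg UMI there were thus 5.17 Fgb UMIs in the deep WT cluster and 1.04 in hKO cluster 29. T-like and B-like cells, which should not make fibrinogen, carried some of it: Fgb took 50.3% (48 to 52.7) of their 1784 fibrinogen UMIs in WT and 43.1% (42 to 44.3) of 6876 in hKO. The WT lymphocyte share lay nearer to that of cluster 22 than to that of the deep WT cluster.

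**Figure D3:**
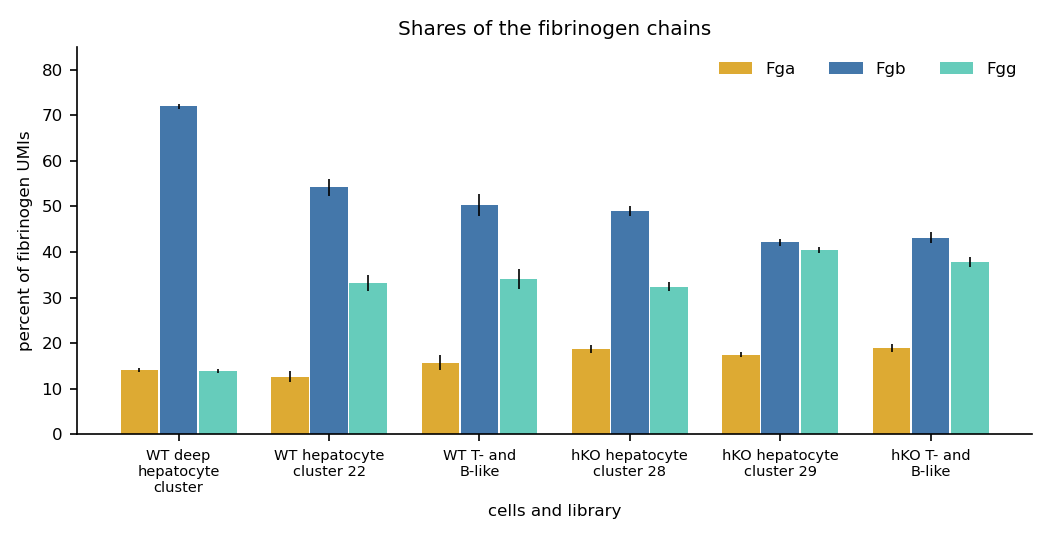
Share of fibrinogen UMIs taken by Fga, Fgb and Fgg (bars, percent, with 95% Clopper-Pearson intervals) in hepatocyte-like populations and in T-like and B-like cells of each library. The deep WT cluster stood apart, with 72% of its fibrinogen UMIs from Fgb and 13.9% from Fgg, while Fgb took between 42.1% and 54.2% in the other 5 groups.

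Of the anticoagulant genes, Serpinc1 was higher in hKO under all 4 choices of cells. Serpinc1, antithrombin, had 207 UMIs (265.6 CPM) in WT and 3962 UMIs (1074.7 CPM) in hKO hepatocyte-like cells. Its log2 ratio was 2.02 (1.81 to 2.23), with 2.01 to 2.06 under the other choices. It was 1.19 and 3.58 at mitochondrial limits of 10% and 50%. Serpind1, heparin cofactor II, had 36 UMIs (46.2 CPM) and 775 UMIs (210.2 CPM), a ratio of 2.19 (1.70 to 2.71). The deep WT cluster, however, held Serpind1 at 233.5 CPM, and the ratio against it was -0.15 (-0.30 to -0.00017).

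The protein C genes were of the same kind. Proc, the precursor of activated protein C, had 100.1 CPM in WT, 209.7 CPM in hKO and 279.5 CPM in the deep WT cluster, for ratios of 1.07 and -0.41. Pros1, protein S, its cofactor, had 10.3 CPM in WT, 52.9 CPM in hKO and 79.7 CPM in the deep WT cluster, for ratios of 2.37 and -0.59. Proz, the cofactor of an inhibitor of factor X, had 28.2 CPM in WT, 72.4 CPM in hKO and 54.4 CPM in the deep WT cluster, with ratios of 1.36 and 0.41. Procr, Thbd and Tfpi, the membrane-bound and endothelial members, were at 0 to 9 UMIs in the hepatocyte-like cells of each library.

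In fibrinolysis, Cpb2 had the highest ratio of hKO over WT among the genes at 20 CPM under all 4 choices of cells. Cpb2 encodes a carboxypeptidase that trims fibrin so that plasminogen binds it less well. It had 123 UMIs (157.8 CPM) in WT and 5464 UMIs (1482.1 CPM) in hKO hepatocyte-like cells, a log2 ratio of 3.23 (2.97 to 3.5). The deep WT cluster, with 476 UMIs (167.2 CPM), gave 3.15 (3.01 to 3.29). Both hKO clusters were high, at 890.7 CPM in cluster 28 and 2274.1 CPM in cluster 29. With each cell of at least 1000 UMIs thinned to that depth, 15% (10.6 to 20.4) of 220 WT and 63.2% (59.8 to 66.6) of 800 hKO hepatocyte-like cells had a Cpb2 UMI. The other 128 WT and 304 hKO cells were too shallow and were left out. Without thinning, over all cells of the class, the shares were 21.6% and 73%. For T-like cells, at 3784 and 3774 UMIs (medians), the unthinned shares were 0.937% in WT and 26.2% in hKO, and the hepatocyte-like medians were 1297 and 1506.5 UMIs.

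Plg, plasminogen, had 138 UMIs (177.1 CPM) in WT and 2484 UMIs (673.8 CPM) in hKO, a log2 ratio of 1.93 (1.68 to 2.19). The other choices gave 0.75 to 1.00. Serpinf2, the plasmin inhibitor, had 174.5 CPM and 504.0 CPM, a ratio of 1.53 (1.28 to 1.79), and 0.42 to 0.60 under the other choices. Both genes were higher in hKO under all 4 choices, by less than the size rule asks under the last 3. Plat, tissue plasminogen activator, had 0 UMIs in WT and 7 in hKO hepatocyte-like cells, but 71 UMIs (24.9 CPM) in the deep WT cluster. The log2 ratio of Plat against that cluster was -3.72 (-5.08 to -2.60).

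Within hKO, the members were not spread evenly over the 2 hepatocyte clusters. Cluster 29 had 2.46% of its UMIs from the 32 genes and 13.1% from the hepatocyte reference genes, and cluster 28 had 0.819% and 4.2%. F2 stood at 1118.7 CPM in cluster 29 and 295.5 CPM in cluster 28. Median mitochondrial shares were 19.8% in cluster 29 and 13.6% in cluster 28, against 11.4% in WT cluster 22 and 3.54% in the deep WT cluster. The part of cell quality in these levels was not tested.

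A list of 36 other genes of the pathway was read in the same way. In hepatocyte-like cells 18 of the 36 reached 20 CPM, of which 9 were higher and 3 lower in hKO, beside the 19.6% and 28.0% over all genes. The highest ratios were those of Ggcx, the carboxylase that activates vitamin K dependent factors, at 3.63 (1.74 to 6.69), and of Serpina10, which inhibits factor X, at 2.86 (2.27 to 3.53). Lman1, one part of the receptor pair that carries factors V and VIII out of the endoplasmic reticulum, was at 2.57 (2.09 to 3.10). Ggcx rested on 2 WT UMIs. The lower genes were Stab2, an endothelial scavenger receptor, at -3.69, Entpd1, which breaks down ATP and ADP, at -2.35, and Anxa2, a plasminogen receptor, at -2.04.

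Endothelial-like cells numbered 1147 in WT and 498 in hKO, and 16 of the 32 genes reached 20 CPM in a library. By the size rule 9 were higher in hKO, where 3.94% of all 7368 genes were, and 1 was lower, where 3.00% were (6.94% in either direction). Of the 9, 8 were hepatocyte genes (F2, Fga, Fgb, Fgg, Serpinc1, Plg, Serpinf2 and Cpb2), and none of these 8 stood above the level of free hepatocyte RNA described below. The genes that did stand above it were F8, Vwf, Pros1, Thbd, Tfpi and Plaur in both libraries and Plat in hKO.

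F8, factor VIII, the cofactor of factor IX, was the gene lower in hKO. It had 13852 UMIs (1729.9 CPM) in WT and 2156 UMIs (803.2 CPM) in hKO endothelial-like cells, a log2 ratio of -1.11 (-1.17 to -1.04). It was lower in hKO in each of the 3 endothelial-like clusters, but by less. The levels were 1803.7 and 1167.1 CPM in cluster 12 (-0.63, -0.70 to -0.56), 501.6 and 263.3 CPM in cluster 14 (-0.93, -1.19 to -0.67) and 1809.2 and 884.2 CPM in cluster 27 (-1.03, -1.27 to -0.80). Cluster 12, where F8 was high, held 983 of 1147 WT but 271 of 498 hKO cells, and cluster 14, where it was low, held 82 and 193. The median ratio over all genes was -0.11 in the class. The 8 endothelial markers summed to 11330.0 CPM in WT and 8697.1 CPM in hKO, with none at 0, and Stab2, one of them, was at 2967.2 and 1616.8 CPM. After thinning to 1000 UMIs, 74.3% (71.7 to 76.8) of WT and 47.2% (42.7 to 51.7) of hKO cells had an F8 UMI. Thinning left out 6 WT and 2 hKO cells that were too shallow. Unthinned shares were 94.9% and 72.9%.

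Von Willebrand factor, which carries factor VIII and tethers platelets, marked a small cluster. Vwf had 119.1 CPM in WT and 153.1 CPM in hKO over the class, a log2 ratio of 0.36 (0.19 to 0.53). In cluster 27 it stood at 983.8 CPM in 82 WT cells and 1087.8 CPM in 34 hKO cells, and its ratio of 0.14 (-0.086 to 0.37) did not differ from 0 beyond counting error. In cluster 12 it stood at 51.5 and 96.2 CPM, a ratio of 0.90 (0.61 to 1.19). So F8 and Vwf, whose proteins travel together in plasma, differed in opposite directions in cluster 12.

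The endothelial anticoagulants differed by less than the size rule asks. Thbd, thrombomodulin, had 85.5 CPM in WT and 116.6 CPM in hKO, a log2 ratio of 0.45 (0.25 to 0.64). It was highest in cluster 27, at 284.3 CPM in WT and 203.7 CPM in hKO. Tfpi, the inhibitor of the tissue factor route, had 290.6 and 202.3 CPM, a ratio of -0.52 (-0.66 to -0.39). Within cluster 12 its ratio was -0.15 (-0.31 to 0.0011), within cluster 14 -0.067 and within cluster 27 -0.25, so the class value was further from 0 than that of any cluster. Pros1 had 312.6 and 248.1 CPM, a ratio of -0.33 (-0.46 to -0.21), with -0.18, 0.024 and -0.44 within clusters 12, 14 and 27.

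Procr, the protein C receptor, was low over the class, at 7.99 CPM in WT and 13.8 CPM in hKO, and reached 32.7 CPM (19 UMIs) and 39.7 CPM (8 UMIs) in cluster 27. In cluster 14 it had 2 UMIs (4.38 CPM) in WT and 22 UMIs (21.6 CPM) in hKO. Plat had 39 UMIs (4.87 CPM) in WT and 61 UMIs (22.7 CPM) in hKO over the class, a log2 ratio of 2.22 (1.62 to 2.84). Most of that lay in cluster 14, which gave 56 of the 61 hKO UMIs. Within cluster 14 Plat stood at 28.5 and 55.0 CPM, a ratio of 0.95 (0.062 to 1.95), and within cluster 27 at 32.7 CPM (19 UMIs) and 4.97 CPM (1 UMI). The class value of Plat was thus larger than its value within cluster 14 and had the other sign in cluster 27.

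Read within clusters, the higher genes were again mainly hepatocyte genes. In cluster 12, 8 of 15 genes at 20 CPM were higher (2.28% of all genes) and none lower (3.03%). In cluster 14, 11 of 18 were higher (5.04%), Procr among them, and none lower (5.38%). In cluster 27, 8 of 16 were higher (5.40%) and 2, F8 and Plat, lower (3.57%).

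**Figure D4:**
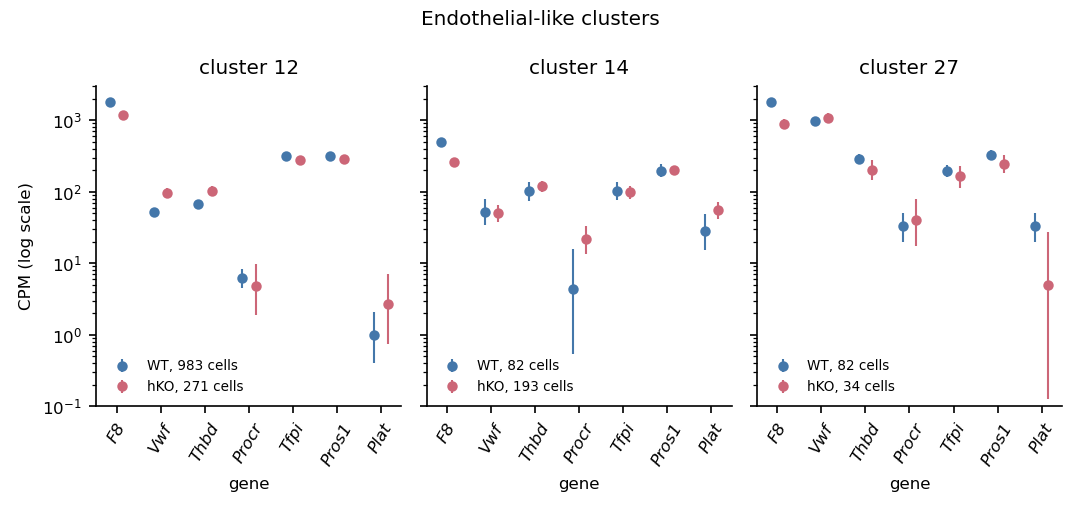
CPM (log axis) of 7 genes in the 3 endothelial-like clusters, WT and hKO, with 95% Poisson intervals. F8 was lower in hKO in every cluster, Vwf was highest in cluster 27 (983.8 and 1087.8 CPM), and the Plat levels of cluster 12 were far below those of cluster 14.

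In the 36 pathway genes, 16 reached 20 CPM in endothelial-like cells, with 3 higher (Asgr1 2.72, Hrg 2.01 and Pzp 1.11) and none lower in hKO, beside 3.94% and 3.00% over all genes. Asgr1, a receptor that clears glycoproteins, and Hrg and Pzp, plasma proteins, are known as products of hepatocytes.

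Monocyte-like cells, all in cluster 5, numbered 577 in WT and 1119 in hKO. Of the 32 genes 15 reached 20 CPM, and 8 were higher in hKO, where 3.23% of all 6321 genes were, and none lower (0.870%, and 4.10% in either direction). All 8 were hepatocyte genes at the free RNA level, the same 8 as in endothelial-like cells. The genes above that level were F10, F13a1, Pros1, Thbd and Plaur in both libraries, and F5 in hKO.

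F13a1, the catalytic subunit of factor XIII, had 3089 UMIs (1026.5 CPM) in WT and 3750 UMIs (681.0 CPM) in hKO monocyte-like cells. Its log2 ratio was -0.59 (-0.66 to -0.52), lower in hKO and short of the size rule. F10 had 635 UMIs (211.0 CPM) and 810 UMIs (147.1 CPM), a ratio of -0.52 (-0.67 to -0.37), the direction opposite to that in hepatocyte-like cells. In WT the F10 level of monocyte-like cells was above the 92.4 CPM of the hepatocyte-like cells. Plaur, the urokinase receptor, had 184.1 and 126.4 CPM, a ratio of -0.54 (-0.71 to -0.38). These 3 genes thus lay lower in hKO by similar amounts while F5 and Pros1 lay higher. F5 had 18.6 and 29.1 CPM (0.64, 0.20 to 1.11), and Pros1 had 38.2 and 60.3 CPM (0.66, 0.35 to 0.98). Free hepatocyte RNA was not subtracted from these values. The hepatocyte reference genes took 0.136% of UMIs in WT and 0.488% in hKO monocyte-like cells. Thbd, at 27.3 and 25.6 CPM, did not differ beyond counting error. The 7 monocyte markers summed to 6074.4 CPM in WT and 5960.8 CPM in hKO.

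Macrophage-like cells numbered 998 in WT and 1732 in hKO, in different clusters. Cluster 15 held 26 WT and 777 hKO cells, cluster 16 held 475 and 824, and cluster 18 held 497 and 131. In the hKO cells of cluster 15 the hepatocyte markers summed to 13526.8 CPM, above the 8924.8 CPM of the macrophage markers, and Fgb stood at 573.8 CPM. Of the 32 genes 14 reached 20 CPM, and 9 were higher in hKO (3.31% of all 6585 genes) and none lower (2.14%, and 5.45% in either direction). The 9 were the 8 hepatocyte genes above and Kng1, none of them above the free RNA level. Without cluster 15, 8 were higher, a count given without a share over all genes, and Kng1 was at 0.84. Those above the free RNA level in both libraries were F13a1, Pros1, Plau and Plaur, and F10 in WT.

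Macrophage clusters 16 and 18 gave F13a1 ratios of opposite sign. In cluster 16, 8 of 15 genes at 20 CPM were higher in hKO (2.37% of all genes) and 2, F7 and F13a1, lower (1.33%). In cluster 18, 10 of 14 were higher (2.81%) and none lower (1.53%). F13a1 had 211 UMIs (73.3 CPM) in WT and 130 UMIs (28.6 CPM) in hKO in cluster 16, a log2 ratio of -1.36 (-1.68 to -1.04). In cluster 18 it had 19 UMIs (5.49 CPM) and 32 UMIs (34.3 CPM), a ratio of 2.64 (1.78 to 3.55). Over the class the values were 36.3 and 25.9 CPM. The resident macrophage (Kupffer cell) marker Clec4f stood at 636.7 CPM in WT and 183.0 CPM in hKO over the class, and cluster 18 held 497 WT but 131 hKO cells. The 7 monocyte markers summed to 306.7 CPM in WT and 582.1 CPM in hKO within cluster 18, and to 696.6 and 688.1 CPM within cluster 16. Their part in the F13a1 levels was not tested.

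F7 was also a cluster 16 gene, with 83 UMIs (28.8 CPM) in WT and 50 UMIs (11 CPM) in hKO, a log2 ratio of -1.39 (-1.93 to -0.87), where cluster 18 had 6 and 2 UMIs. This is the direction opposite to that of F7 in hepatocyte-like cells. F10 had 58.4 CPM in WT and 35.2 CPM in hKO in cluster 16 (-0.73, -1.05 to -0.41). In cluster 18 F10 lay the other way and met the size rule, at 9.82 and 36.4 CPM (1.89, 1.16 to 2.62), on 34 UMIs in each library. Over the macrophage-like class F10 had 31.9 and 41.7 CPM (0.39, 0.12 to 0.66). Plau, urokinase, had 20.1 and 22.2 CPM over the class, with a ratio of 0.14 (-0.22 to 0.50). Pros1 had 47.3 and 53 CPM, and Plaur 46.2 and 38.4 CPM.

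Of the 36 pathway genes, 17 reached 20 CPM in macrophage-like cells, with 4 higher and 2 lower, beside 3.31% and 2.14% over all genes. Besides Asgr1, Hrg and Pzp, Pf4, a chemokine known from platelets and macrophages, was higher, at 90.8 CPM in WT and 234.2 CPM in hKO (1.37, 1.23 to 1.51). Among the lower ones was Stab2, at 90 and 44.9 CPM (-1.0). In monocyte-like cells 3 of 15 were higher (Asgr1, Hrg and Pzp) and none lower, beside 3.23% and 0.870%.

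In the remaining classes a few genes stood above the free RNA level. Plaur reached 919.4 CPM in WT and 676.4 CPM in hKO neutrophil-like cells and 617.2 and 310.2 CPM in plasmacytoid dendritic-like cells. It also reached 205.0 and 118.8 CPM in B-like cells, against 7 and 10.3 CPM in T-like cells. Plaur was lower in hKO in each of these 3 classes, as it was in monocyte-like cells. F5 stood at 101.4 CPM (112 UMIs in 76 of 499 cells) in WT and 116.6 CPM (81 UMIs in 45 of 262 cells) in hKO neutrophil-like cells. F3 had 26 UMIs (23.5 CPM) in 14 WT neutrophil-like cells and 5 UMIs (7.2 CPM) in hKO. The 121 F13a1 UMIs of WT neutrophil-like cells came from 7 of 499 cells, with 57 in 1 cell, so that level rests on few cells. F13a1 had 78.9 and 37.2 CPM in conventional dendritic-like cells.

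Hepatocyte transcripts are abundant in plasma-protein-secreting tissue and are found in droplets of every kind. The level of this free RNA was read from the reference genes: the UMIs expected of a gene in a class were its ratio to them in the hepatocyte-like cells times their UMIs in that class. A gene stood above it at 20 CPM or more with a lower Poisson bound over 2 times the expected UMIs. The reference genes took 0.181% of UMIs in WT and 0.46% in hKO T-like cells. Fgb had 446 UMIs in WT T-like cells where 376.1 were expected, and 1727 in hKO where 1512.2 were. In macrophage-like cells Fgb had 1445 UMIs in hKO and Cpb2 442, and the level of Cpb2 there, 69 CPM, was below the 81.3 CPM of the pooled hKO T-like and B-like cells. A UMI of Fgb was found in 23.2% of WT and 53.8% of hKO T-like cells. So the higher hepatocyte genes in hKO endothelial-like, monocyte-like and macrophage-like cells were higher in hKO lymphocytes too, where Fgb stood at 79.9 CPM in WT and 249.3 CPM in hKO. With the expected UMIs subtracted, the counts of genes meeting the size rule became 2 in endothelial-like, 1 in macrophage-like and 1 in monocyte-like cells. No share over all genes is given after subtraction, so these counts are not read as a result about these genes. Subtraction also takes genes under the 20 CPM floor, so these counts can fall without a smaller ratio. In that order of classes, the log2 ratio of F2 was still 1.41, 1.26 and 1.74. That of Serpinf2 was 0.068, 0.28 and 0.71.

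**Figure D5:**
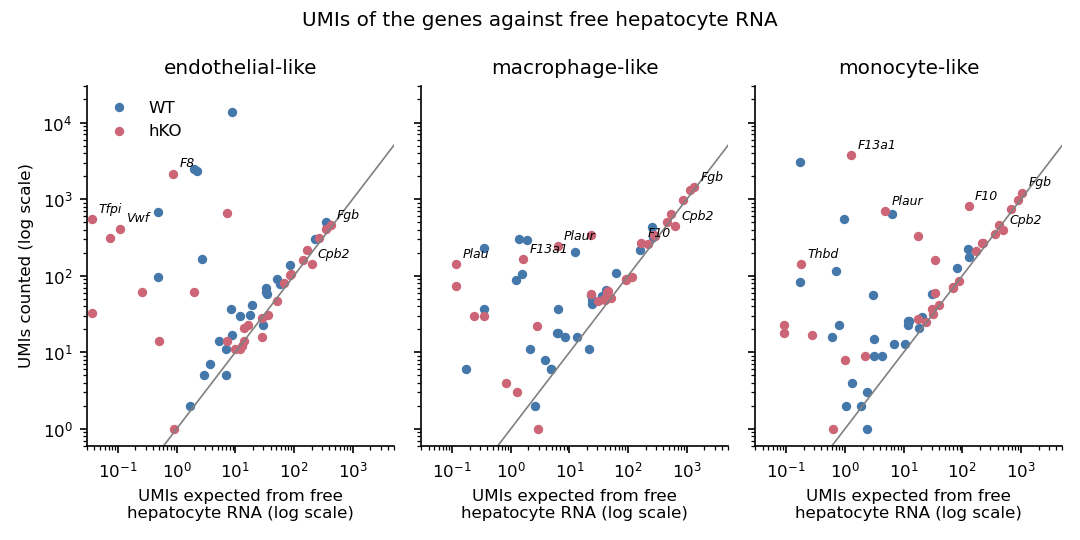
UMIs counted against UMIs expected from free hepatocyte RNA (both log axes) for the genes with values above 0 in endothelial-like, macrophage-like and monocyte-like cells; the line marks equality. Fibrinogen and the other hepatocyte genes lay along the line in both libraries, and F8, Vwf and Tfpi in endothelial-like cells and F13a1 and Plaur in monocyte-like cells lay far above it.

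Endothelial transcripts were found outside their class as well. F8 stood at 56 CPM (368 UMIs) in WT and 7.47 CPM (63 UMIs) in hKO T-like cells. From the 8 endothelial markers, at 584.2 and 166.7 CPM in those cells, 586.4 and 129.8 F8 UMIs would be expected. The F8 of T-like cells was thus 0.628 and 0.486 of the amount expected from the markers, and Tfpi was 1.35 and 1.65. In B-like cells, with the markers at 554.9 CPM in WT and 443.2 CPM in hKO, F8 was 0.132 and 0.12 of that amount. Tfpi was 0.226 and 0.168 there. Whether the markers in these classes came from endothelial RNA was not tested. In hepatocyte-like cells F8 was 1.46 and 2.28 of that amount, on 36 and 24 UMIs. Plaur in B-like cells had 956 UMIs in WT and 412 in hKO, where 4.7 and 4.02 were expected from the endothelial markers. Endothelial-like cells held Plaur at 20.6 and 22.7 CPM, below the 205.0 and 118.8 CPM of B-like cells, so this comparison could not have come out otherwise. Carry-over of Plaur from neutrophil-like or plasmacytoid dendritic-like cells, where it was higher, was not tested.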

How the data were processed

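The counts are raw UMIs per gene and barcode that the authors deposited as whole numbers, made with Cell Ranger 7.1.0 per the file headers. The other columns, deposited with them, name genes and barcodes. The submitters' processing notes also list R 3.0, Seurat 3 and build mm9. The labels state neither aligner settings nor the annotation release. The 32 genes and all lists were chosen with earlier results of these data known.

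Barcodes were kept with at least 200 genes, 500 UMIs and at most 25% mitochondrial UMIs. Scrublet removed 394 WT doublets at its own threshold. In hKO that threshold marked 0.0175%, so the top expected share (1049) was removed. Both libraries were clustered together without integration in scanpy 1.11.5 (2000 variable genes without the 32 genes and Fabp5, 30 components, 15 neighbors, Leiden 1.0, seed 1). Of 29 clusters 26 were named from at least 3 markers and 3 stayed unnamed (1327 WT and 635 hKO cells). A cluster mostly of 1 library may be that library and not a cell type.

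UMIs were summed per class, since cells are not replicates. Intervals are exact Poisson for levels, conditional binomial for ratios and Clopper-Pearson for shares, at 95%. The comparison was also run on simulated Poisson counts with known ratios. Those counts follow the model of the intervals and hold no spread between cells or libraries, so that run checks only the calculation. Ratios against 0 UMIs used 3 counts in its place. All 32 genes are named. Of the 36 pathway genes, those meeting the rule with the 3 largest ratios each way are, except 1 that is not reported here. The deep WT hepatocyte cluster, macrophage-like cells without cluster 15, and a free RNA profile from the gate were alternatives chosen after the data were seen. Promoter sequences are from RefSeq, GRCm38.p6.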

Additional observations from a re-analysis of the deposited data

Results flagged for a closer look

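F13a1 was flagged because it met the size rule in opposite directions in 2 clusters of the macrophage-like class. Its log2 ratio of hKO over WT was -1.36 in cluster 16 and 2.64 in cluster 18. With 1 library per genotype the difference between the clusters was not tested.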

How the results depend on the processing

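With 1 library per genotype there was no replicate to leave out. No paired analysis was possible because each genotype had 1 library and no test was made. Leaving out hepatocyte-like clusters under 0.5 of the library's depth was not run, since 0 WT cells were left.

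The hepatocyte-like result depended on which cells were taken, and the cause was not tested. The 19 genes meeting the size rule became 9 at resolution 2.0, 9 with the gate and 11 with the deep WT cluster. They became 10 with doublets kept and 10 with stricter cell minimums. These counts add both directions. Of all genes, 19.6% were higher and 28.0% lower at resolution 1.0, and 8.98% and 42.4% at resolution 2.0. The shares were 10.3% and 54.3% with the gate and 10.1% and 46.4% with the deep WT cluster. No share over all genes is given for kept doublets, stricter minimums or the 10% limit. Among genes that met the rule, ratios in hepatocyte-like cells changed sign for F5, Proc and Pros1 at resolution 2.0 (-0.51, -0.21 and -0.28), with the deep WT cluster (-0.74, -0.41 and -0.59), with doublets kept (-0.45, -0.18 and -0.28) and with stricter minimums (-0.58, -0.26 and -0.35). With the gate they did for F5 (-0.28) and Proc (-0.18), and with the deep WT cluster for Serpind1 (-0.15). At a mitochondrial limit of 10% they did for F2 (-0.36), F5 (-1.49), Fga (-0.28), Plg (-0.021), Proc (-0.93), Pros1 (-1.05), Proz (-0.19) and Serpind1 (-0.47). F12, Kng2 and Fgb, which had not met it, changed sign at resolution 2.0 (-0.86, -1.13 and -0.71), with the gate (-0.67, -1.01 and -0.58) and with the deep WT cluster (-1.10, -1.36 and -0.92). Pathway genes meeting the rule there went from 12 to 7 with the gate and 5 at the 10% limit.

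Subtracting free hepatocyte RNA left 2 of 10 genes in endothelial-like, 1 of 9 in macrophage-like and 1 of 8 in monocyte-like cells, and 1, 2 and 0 pathway genes. Part of such a fall can come from genes that subtraction takes under the 20 CPM floor. Subtraction turned Fga (-0.43) and Fgg (-0.051) in monocyte-like and Kng1 (-0.60) in macrophage-like cells. A floor of 5 CPM gave 17, 19 and 15 genes in endothelial-like, macrophage-like and monocyte-like cells, and 6 pathway genes in monocyte-like cells. A floor of 50 CPM gave 6 genes in endothelial-like and 5 in monocyte-like cells, and 1, 3 and 1 pathway genes in endothelial-like, macrophage-like and monocyte-like cells. No share over all genes is given beside the counts after subtraction or at these floors, so they are not read as a result about these genes. The genes above free RNA became 3 of 5 in WT macrophage-like cells at resolution 2.0 and at 3 times the lymphocyte level, and 2 at a mitochondrial limit of 50%. In hKO macrophage-like cells that limit gave 2 of 4, and in WT monocyte-like cells 3 times the lymphocyte level gave 3 of 5.

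Few UMIs limit several genes: F11 in hKO hepatocyte-like cells rests on 25, and Plat in hKO endothelial-like cells on 61.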
